A study of Homo sapiens with 12 samples.

Results

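The genes described here encode the proteins of the cytosolic ribosome, chosen by symbol: RPL or RPS followed by a number, with RPLP0, RPLP1, RPLP2, RPSA and FAU added. The deposited tables held 88 such entries among 20323 genes, 55 for the large subunit and 33 for the small subunit. They carry 86 distinct symbols, because RPL22 and RPL26 each stood at 2 identifiers. Enough reads for a test were counted for 84 of the 88, which were 51 large and 33 small subunit genes. The 4 others were RPL10L, with 0 counts in every library, RPL3L, with 0 to 5 counts, and the second entries of RPL22 and RPL26, with 0 to 3.51 and 0 to 5.84 estimated counts.

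A ribosome is built from a small subunit, which reads the messenger RNA, and a large subunit, which joins the amino acids, and each ribosome needs 1 copy of most of its proteins. Their genes are scattered over the genome, here over 21 chromosomes, yet their transcripts are known to be kept near a common level. The messenger RNAs typically begin with a C followed by a run of pyrimidines, the terminal oligopyrimidine (TOP) tract, through which the kinase mTOR and the RNA-binding protein LARP1 set their translation and stability. LKB1, encoded by STK11, is a kinase that activates AMPK, and AMPK restrains mTOR when energy is low.

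The cells were labelled A549, a human line from a lung adenocarcinoma, and gave 4 groups of 3 libraries: LKB1-deficient cells given high-dose AA (VitC in the titles), LKB1-deficient cells given PBS, WT cells given high-dose AA, and WT cells given PBS. The cells titled con carry the label LKB1-deficient. How LKB1 was removed or restored, the dose and the time of treatment were not given in the sources used here, and no source says whether the 3 libraries of a group are separate cultures; every p-value therefore speaks only to the spread between these libraries. Messenger RNA was selected with oligo(dT) beads, and the libraries held 16055534 to 20306129 estimated counts.

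STK11 averaged 6.64 ± 0.910 CPM (counts scaled to library size) in LKB1-deficient AA cells, 5.79 ± 0.862 in LKB1-deficient PBS cells, 26.0 ± 2.01 in WT AA cells and 24.5 ± 0.928 in WT PBS cells (SD, n = 3 each). The LKB1-deficient libraries reached at most 7.34 CPM and the WT libraries at least 23.6 CPM, so its level went with the genotype labels, and STK11 was lower by -2.08 on the log2 scale under PBS (edgeR quasi-likelihood test, adjusted p = 1.48e-10). Keratin genes KRT8 and KRT18 were abundant in every library. Several genes often high in A549 were low or near 0 here: AKR1B10 lay between 0.425 and 2.43 CPM, ALDH1A1 at no more than 0.0613 CPM and KRT19 at no more than 0.50 CPM. Of the other cell types checked, CD3E and COL1A2 were at 0 in every library. Of the fibroblast genes COL1A1 lay between 10.6 and 14.6 CPM in every library and PDGFRB averaged 2.36 ± 0.566 CPM in WT AA against 0.766 ± 0.218 CPM in WT PBS cells. The endothelial gene CDH5 reached 9.68 ± 0.833 CPM in WT PBS cells. CDH5 moved with the treatment, averaging 1.04 ± 0.466 CPM in LKB1-deficient AA cells against 7.69 ± 1.29 CPM in LKB1-deficient PBS cells. The part of CDH5 and PDGFRB in the values below was not tested.

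Read per transcript length, as FPKM (fragments scaled to transcript length and library size), ribosomal protein transcripts spanned a wide range. The small subunit gene RPS2, whose protein lies at the messenger RNA entry, was the highest at a mean of 3017 FPKM over the 12 libraries, ahead of RPS24 at 1775 and RPS18 at 1427 FPKM. In the large subunit RPL41, RPL7A and RPLP0, the core of the stalk that binds translation factors, were highest at 2650, 2007 and 1796 FPKM. The order differed between groups: RPL7A averaged 1767 FPKM in LKB1-deficient AA cells, under RPL12 at 2366 and RPLP0 at 2197 FPKM, and 2704 FPKM in WT AA cells. The lowest tested were RPL39L at 21.3, RPL23A at 23.5 and RPL22L1 at 34.6 FPKM in the large subunit, and RPS10 at 76.0, RPS28 at 92.6 and RPS27L at 94.1 FPKM in the small one. The RPS28 value rests on a length of 1330 bases implied by its counts and FPKM, where the median of the tested genes was 661. In CPM, which is not scaled to length, RPS28 averaged 123, above RPS29 at 44.8. Ribosomal protein genes have many processed pseudogene copies and close paralogues, and the sources used here do not say how shared reads were assigned, so the level of a single gene is less certain than that of the group.

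The starts of 11 transcripts are shown because the results below turn on these genes: 4 paralogue pairs, and RPL7A, RPS14 and RPL10A. RPL10A is a standard gene with no tract at its annotated start itself, and RPL22L1 is a copy with one. In RPL10A and RPL36AL a run of pyrimidines led by C begins within 5 bases of the annotated start. Each window runs from 10 bases before to 20 bases from the annotated start, 5′ to 3′ on the transcribed strand, from the RefSeq table of GRCh38.p14. Capitals mark the pyrimidine tract, required here to begin with C at the start itself and to hold at least 4 further C or T bases; a sequence without capitals has no such tract.
RPL7A (chr9:133348208-133348237, plus strand): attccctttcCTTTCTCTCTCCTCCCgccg
RPS14 (chr5:150449720-150449749, minus strand): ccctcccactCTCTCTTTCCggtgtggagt
RPL10A (chr6:35468391-35468420, plus strand): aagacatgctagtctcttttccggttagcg
RPL22 (chr1:6199576-6199605, minus strand): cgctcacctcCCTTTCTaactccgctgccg
RPL22L1 (chr3:170870176-170870205, minus strand): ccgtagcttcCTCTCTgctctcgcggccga
RPL26 (chr17:8383174-8383203, minus strand): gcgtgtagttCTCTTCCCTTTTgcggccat
RPL26L1 (chr5:172958719-172958748, plus strand): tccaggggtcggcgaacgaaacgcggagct
RPL36A (chrX:101391001-101391030, plus strand): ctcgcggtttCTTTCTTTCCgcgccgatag
RPL36AL (chr14:49620607-49620636, minus strand): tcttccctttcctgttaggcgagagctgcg
RPS27 (chr1:153990752-153990781, plus strand): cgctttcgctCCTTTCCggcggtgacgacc
RPS27L (chr15:63157458-63157487, minus strand): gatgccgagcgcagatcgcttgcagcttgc

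A start site was listed for 68 of the 84 tested genes, and 48 of them, or 70.59%, carried the tract at a listed start. The share was 69.05% in the large subunit (29 of 42) and 73.08% in the small subunit (19 of 26). Over all genes of the deposited tables with a listed start it was 6.32% (962 of 15223). Among the paralogue copies RPL22L1 alone of 5 carried it. Allowing the tract to begin within 5 bases of the start raised the shares to 82.35% of the tested genes, 2 of the 5 copies and 28.3% of all genes. A match is a description of these letters at an annotated start, and no match says only that these letters are not there.

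Together the ribosomal protein genes took a larger share of the counts under AA in both genotypes. They made up 5.82, 6.08 and 5.79% of all estimated counts in the LKB1-deficient AA libraries, against 4.13, 3.79 and 4.03% in the LKB1-deficient PBS libraries. In WT cells they made up 6.12, 5.84 and 6.40% under AA, against 3.91, 3.93 and 3.83% under PBS. AA and PBS libraries did not overlap in either genotype, while the LKB1-deficient AA and WT AA libraries did. Both subunits took part: the large subunit held 3.60 ± 0.0982% in LKB1-deficient AA against 2.48 ± 0.108% in LKB1-deficient PBS cells, and 3.77 ± 0.172% in WT AA against 2.43 ± 0.0367% in WT PBS cells. The small subunit held 2.30 ± 0.0600% in LKB1-deficient AA against 1.504 ± 0.0677% in LKB1-deficient PBS cells, and 2.36 ± 0.109% in WT AA against 1.47 ± 0.0189% in WT PBS cells (SD, n = 3 each).

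The ratio of the summed counts of the subunits shifted slightly, and such a sum weighs abundant genes most. RPS2 alone averaged 3635 CPM in LKB1-deficient AA against 2020 CPM in LKB1-deficient PBS cells, and 3598 against 2082 CPM in WT cells. The median log2 change under AA was 0.53 (large) and 0.54 (small) in LKB1-deficient cells, and 0.61 and 0.68 in WT cells. The part of single genes in the ratio was not tested. The ratio of large to small subunit counts was 1.567 ± 0.00372 in LKB1-deficient AA cells against 1.648 ± 0.00503 in LKB1-deficient PBS cells, and 1.598 ± 0.00437 in WT AA cells against 1.656 ± 0.00719 in WT PBS cells. The AA libraries all lay under the PBS libraries of their genotype, and the LKB1-deficient AA libraries, at 1.563 to 1.570, lay under the WT AA libraries, at 1.595 to 1.603. Under PBS the LKB1-deficient range of 1.642 to 1.652 overlapped the WT range of 1.651 to 1.664. Mitochondrially encoded transcripts moved the other way, at 2.59 ± 0.0479% of counts in LKB1-deficient AA against 5.20 ± 0.147% in LKB1-deficient PBS cells and 3.65 ± 0.0590% in WT AA against 5.25 ± 0.0864% in WT PBS cells. A smaller mitochondrial share raises every other share. Without mitochondrial genes in the total, the large subunit still held 3.69% in LKB1-deficient AA against 2.61% in LKB1-deficient PBS cells, and 3.91% in WT AA against 2.56% in WT PBS cells. In bulk RNA a larger share cannot be told apart from less RNA of other kinds per cell.

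**Figure D1:**
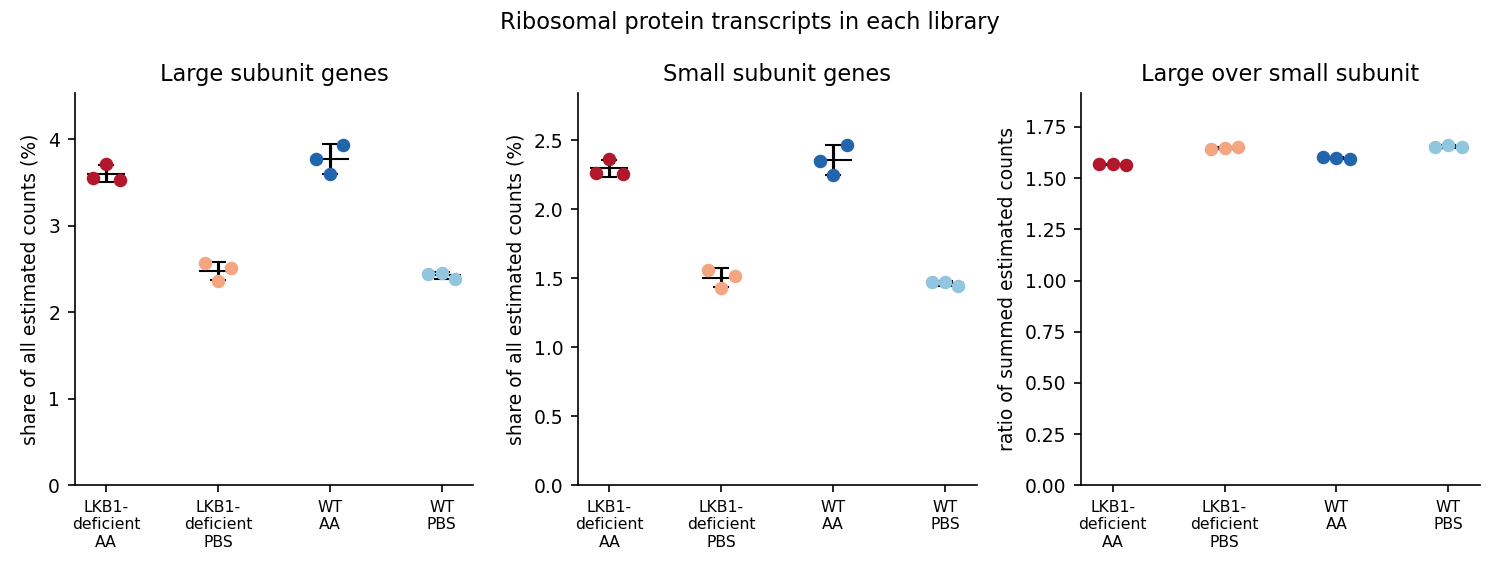
Share of all estimated counts taken by large subunit genes (left, %) and small subunit genes (middle, %), and the ratio of the summed counts (right), for each library; points are libraries, horizontal marks the mean and bars the SD of 3. Both shares were higher in AA than in PBS libraries of the same genotype, and the ratio was lower.

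In LKB1-deficient cells, AA against PBS asks how the treatment changed these transcripts where LKB1 is low. Here 78 of the 84 tested genes rose, 3 fell and 3 were not called at an adjusted p under 0.05 (edgeR quasi-likelihood test, Benjamini-Hochberg over 12718 genes). Of all genes tested, 37% rose and 37.4% fell, 74.4% in all. AA and PBS libraries did not overlap for 75 higher and 3 lower genes, against 37.7% and 37.8% of all genes tested. All 33 small subunit genes rose, and of the 51 large subunit genes 45 rose, 3 fell and 3 were not called. The median log2 change was 0.53 for the large and 0.54 for the small subunit, against 0.01 over all genes tested.

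The changes in LKB1-deficient cells were uneven. RPL10A, the protein of the L1 stalk that guides spent transfer RNA out, had 771, 768 and 759 CPM in AA against 370, 347 and 350 CPM in PBS libraries. Every AA library of RPL10A was above every PBS library, and its log2 change of 1.11 (SE 0.0305, edgeR adjusted p = 3.47e-18) was the highest of the 84. RPL22L1, a paralogue of RPL22, followed at 1.05 (SE 0.0943), and RPL12, at the base of the factor-binding stalk, at 0.89 (SE 0.0244). In the small subunit RPS12 led at 0.87 (SE 0.0565), then RPS2 at 0.85 (SE 0.0235) and RPS21 at 0.78 (SE 0.0939). RPS2 had 3658, 3586 and 3661 CPM in AA against 2035, 2067 and 1958 CPM in PBS libraries, with no overlap.

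At the other end, the 3 genes that fell in LKB1-deficient cells were RPL36AL, RPL7L1 and RPL7A. RPL36AL, an autosomal copy of RPL36A that encodes a nearly identical protein, had 50.4, 59.7 and 51.9 CPM in AA against 77.0, 73.2 and 91.2 CPM in PBS libraries, a log2 change of -0.58 (SE 0.0758, edgeR adjusted p = 5.42e-07). RPL7L1, related to a yeast factor of large subunit assembly, changed by -0.23 (SE 0.0346, edgeR adjusted p = 3.67e-06). RPL7A had 1528, 1509 and 1527 CPM in AA against 1610, 1595 and 1567 CPM in PBS libraries, a change of -0.06 (SE 0.0221, edgeR adjusted p = 0.0128). That small change of RPL7A was no longer called with upper quartile scaling (-0.024), with library size alone (-0.0066) or on FPKM (-0.0064). RPL22, RPL24 and RPL38 were not called, at 0.02, 0.09 and 0.19. Among small subunit genes RPS14, whose loss marks the 5q- syndrome, rose least at 0.15 (SE 0.0376), then RPS25, which several viral entry sites on RNA need, at 0.20 (SE 0.0746) and RPS26 at 0.25 (SE 0.0314). RPS25 was no longer called with DESeq2 (0.20) or without replicate 2 of the LKB1-deficient AA group (0.11) or replicate 2 of the LKB1-deficient PBS group (0.10).

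The same comparison in WT cells gave a more uniform picture. Of 84 tested genes 81 rose, 0 fell and 3 were not called, where 34.5% of all genes tested rose and 35.2% fell, 69.8% in all. All 33 small subunit and 48 of 51 large subunit genes rose, with medians of 0.68 and 0.61 on the log2 scale against 0.01 over all genes tested. The middle 50% of the genes spanned 0.14 in WT cells and 0.29 in LKB1-deficient cells, where the median standard error of a gene was 0.04 in both. No WT AA library overlapped a WT PBS library for 82 of the 84, against 36.3% of all genes that were so separated and higher.

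Leaving the 6 tested paralogue copies aside, the other 78 genes all rose in WT cells, from 0.44 to 0.94. The largest rises were RPS12 at 0.94 (SE 0.0568), RPS21 at 0.86 (SE 0.0952) and RPS18 at 0.83 (SE 0.0560) in the small subunit. In the large subunit they were RPL37A at 0.81 (SE 0.0762), RPL12 at 0.81 (SE 0.0243) and RPL13A at 0.79 (SE 0.0295). RPS12 had 303, 276 and 313 CPM in WT AA against 162, 160 and 142 CPM in WT PBS libraries, with no overlap. The 5 smallest changes of the large subunit were all paralogue copies, RPL7L1 at -0.06, RPL22L1 at 0.17, RPL26L1 at 0.24, RPL39L at 0.26 and RPL36AL at 0.34, and the smallest of the small subunit was the copy RPS27L at 0.44. The smallest among the other small subunit genes were RPS26 at 0.51 and RPS7 at 0.55.

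**Figure D2:**
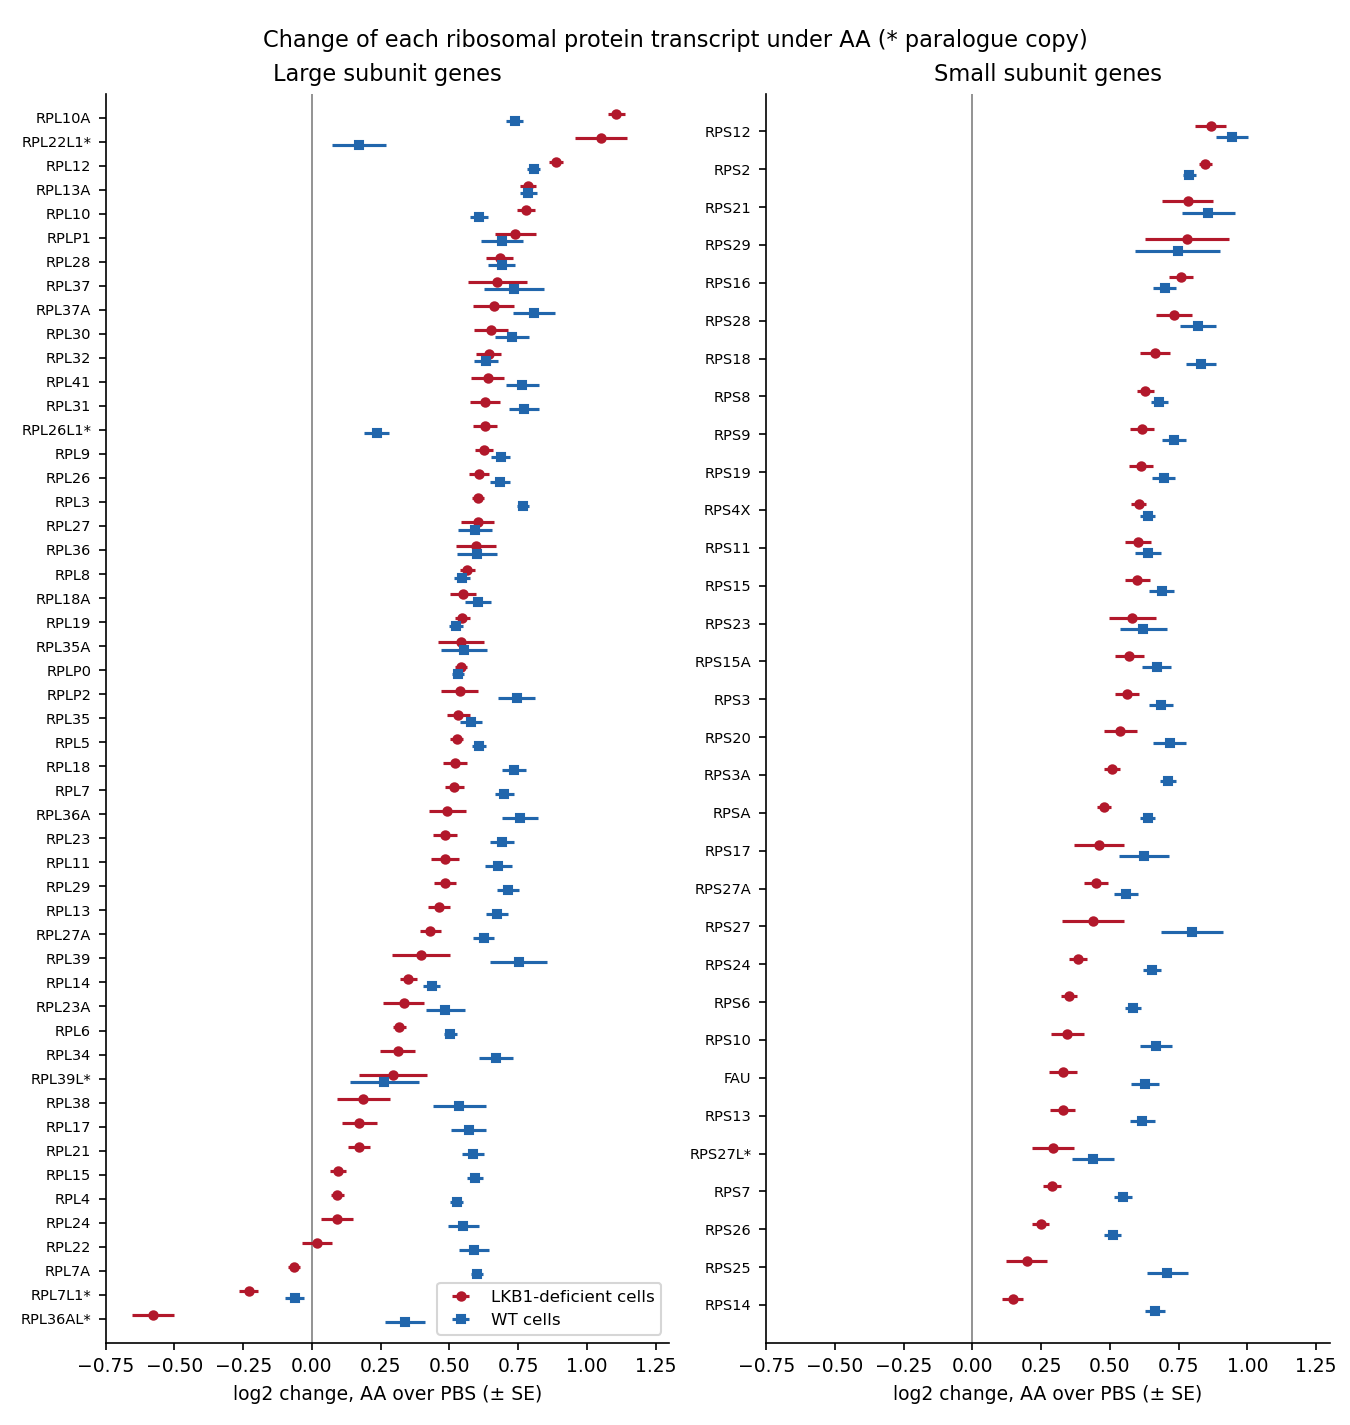
Log2 change, AA over PBS, of 51 large (left) and 32 small (right) subunit genes in LKB1-deficient cells (red circles) and WT cells (blue squares), with standard errors; genes run down from the highest to the lowest change in LKB1-deficient cells, and asterisks mark paralogue copies. WT values lie mostly between 0.44 and 0.94, and LKB1-deficient values spread from -0.58 to 1.11.

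**Figure D3:**
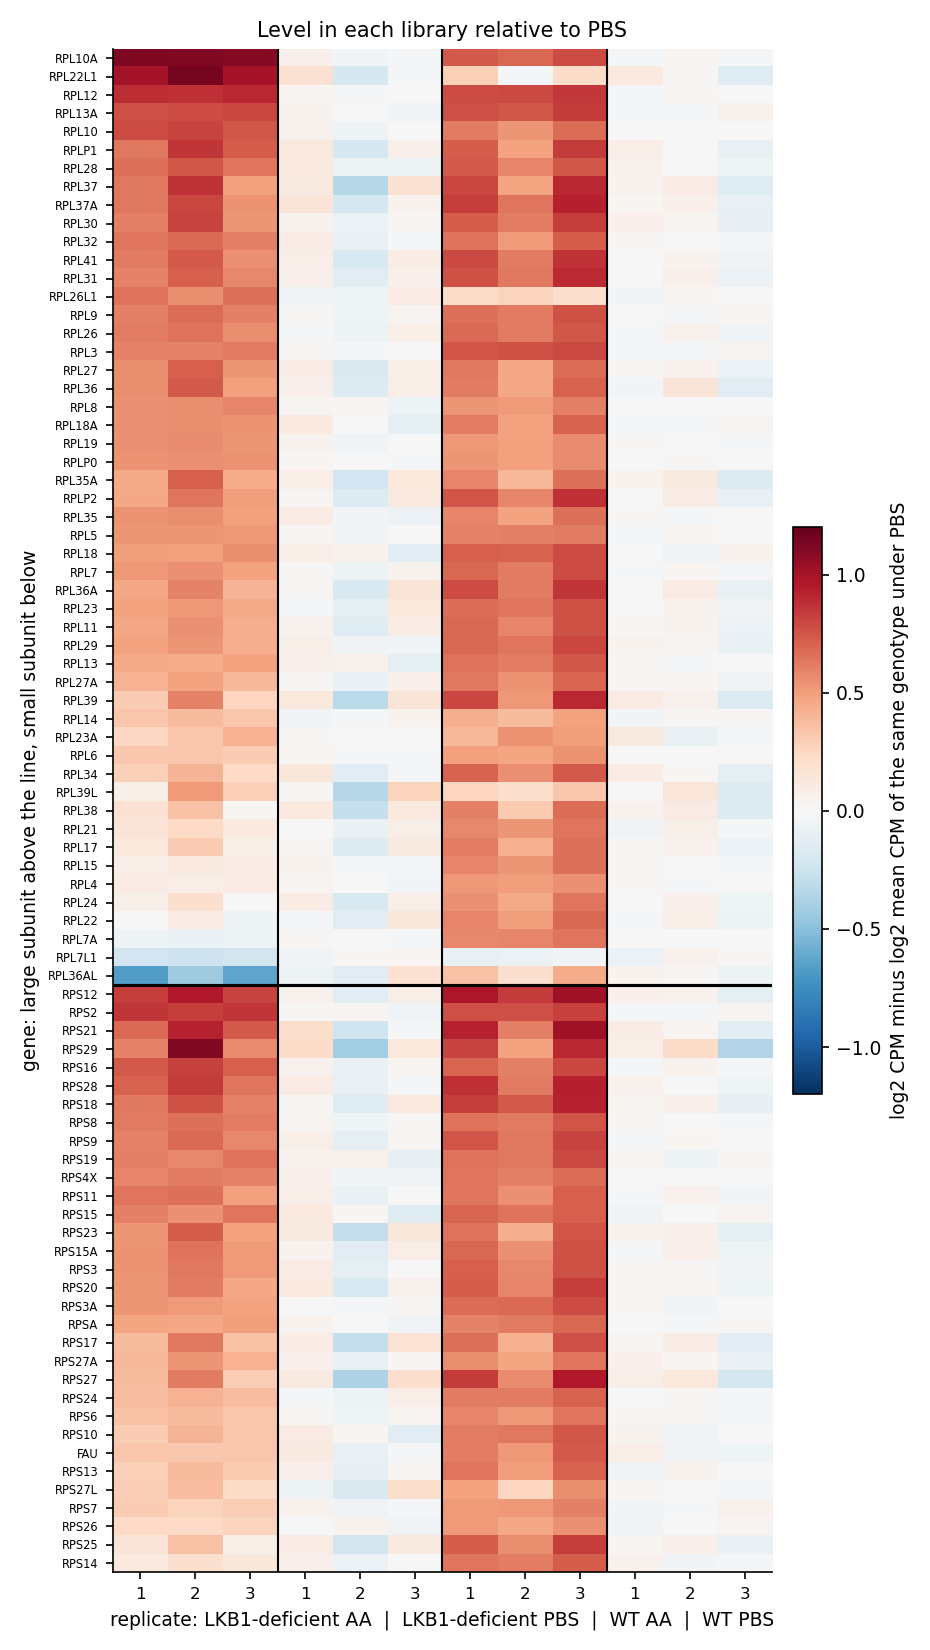
Level of the tested genes of both subunits, as shown in the plot of changes, in each of the 12 libraries, as log2 CPM minus the log2 mean CPM of the same genotype under PBS; libraries run across in 4 groups of 3, and genes run down by subunit and by their level in LKB1-deficient AA libraries. WT AA libraries are red for nearly all genes, and LKB1-deficient AA libraries fade from red to blue down the large subunit and to pale red down the small subunit.

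The change under AA went with transcript length, and ribosomal protein transcripts are short. The median length implied by the tables was 661 bases for the tested ribosomal protein genes, which spanned 302 to 3204 bases, and 2602 bases for all genes tested. Over the 12718 genes, the log2 change under AA fell with length, with a Spearman rho of -0.411 in LKB1-deficient cells and -0.386 in WT cells, given as a description across genes that share libraries. Of the ribosomal protein genes, 77 were in the shortest 10% of all genes, whose median change was 0.41 in LKB1-deficient and 0.38 in WT cells.

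When the trend with length over all genes was removed from each library, the rise became smaller. In LKB1-deficient cells 45 of 84 then rose and 18 fell, against 35.7% and 34.9% of all genes, with medians of 0.11 (large) and 0.10 (small). In WT cells 71 rose and 2 fell, against 33.4% and 31.6% of all genes, with medians of 0.23 (large) and 0.21 (small). RPL10A was then at 0.68 in LKB1-deficient cells, against 1.11 without the correction, and at 0.33 in WT cells, against 0.74. RPS12 was at 0.42 in LKB1-deficient and 0.43 in WT cells, against 0.87 and 0.94. RPS14, RPL15 and RPL24 turned to -0.28, -0.32 and -0.35 in LKB1-deficient cells, with edgeR adjusted p-values of 5.86e-09, 7.68e-12 and 1.78e-10. RPL22, RPL4, RPS25 and RPS26 were also called lower there, at -0.33, -0.25, -0.25 and -0.19. The part of transcript length in the rise was not tested. Length also went with the spread between replicates: over the 84 genes the within-group coefficient of variation had a median of 5.16% and was highest for RPS29 at 20% and RPS27 at 14.9%, the 2 shortest transcripts at 302 and 352 bases.

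**Figure D4:**
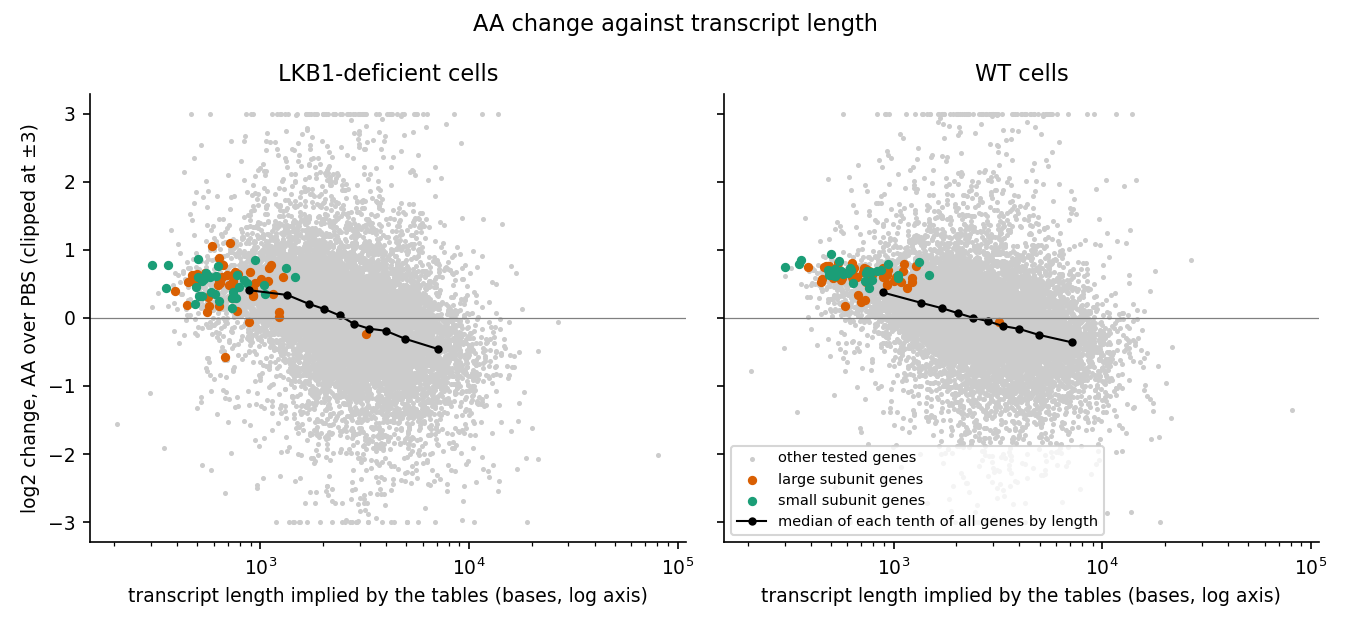
Log2 change, AA over PBS (vertical, clipped at ±3), against implied transcript length (horizontal, bases on a log axis) for all 12718 tested genes in LKB1-deficient (left) and WT (right) cells; grey points are other genes, orange and green points large and small subunit genes, and the black line joins the medians of 10 equal groups of genes by length. The black line falls from 0.41 to -0.46 in LKB1-deficient and from 0.38 to -0.36 in WT cells as length grows, and most coloured points lie at its short end.

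Whether the change under AA differed between the genotypes was tested as an interaction, LKB1-deficient minus WT. It was lower in LKB1-deficient cells for 33 of 84 genes and higher for 4, where 23% and 21.6% of all genes tested were lower and higher, 44.6% in all. The other 47 were not called, so calls were about as common as over all genes, with more of them lower. The large subunit had 21 lower and 4 higher of 51, and the small subunit 12 lower and 0 higher of 33. The medians were -0.14 for both subunits and -0.01 over all genes tested. Without replicate 3 of the WT AA group they were -0.075 (large) and -0.086 (small), without replicate 3 of the LKB1-deficient AA group the large subunit's was -0.091, and on FPKM they were -0.067 and -0.076. Leaving out 1 library at a time gave 30 to 45 genes lower, the most without replicate 2 of the LKB1-deficient PBS group, with 40.8% to 43% of all genes tested called either way. With the length trend removed 46 were lower and 4 higher, against 22.7% and 22.2% of all genes.

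RPL7A had the lowest difference among the large subunit genes that are not copies. In LKB1-deficient cells it had 1528, 1509 and 1527 CPM under AA, just under the 1610, 1595 and 1567 CPM of the PBS libraries. In WT cells it had 2379, 2391 and 2492 CPM under AA, against 1594, 1597 and 1603 CPM under PBS. It rose by 0.60 (SE 0.0221) in WT cells, and the difference of the changes was -0.66 (SE 0.0313, edgeR adjusted p = 3.45e-13).

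RPL22, an RNA-binding protein of the large subunit, showed the same form. It had 525, 561 and 501 CPM in LKB1-deficient AA libraries, overlapping the 518, 475 and 574 CPM of the LKB1-deficient PBS libraries. In WT cells it had 752, 711 and 807 CPM under AA, against 495, 530 and 482 CPM under PBS, with no overlap. The difference was -0.57 (SE 0.0773, edgeR adjusted p = 3.16e-06).

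RPL15, RPL24 and RPL4, named after their values were seen, followed with differences of -0.50 (SE 0.0411), -0.46 (SE 0.0812) and -0.43 (SE 0.0326). RPL4, whose protein lines the exit tunnel, had 1517, 1496 and 1520 CPM in LKB1-deficient AA against 1454, 1416 and 1381 CPM in LKB1-deficient PBS libraries. In WT cells RPL4 had 2096, 2070 and 2139 CPM under AA against 1475, 1444 and 1457 CPM under PBS. AA and PBS libraries of RPL4 did not overlap in either genotype, but the step was larger in WT cells, at 0.53 (SE 0.0231) against 0.09 (SE 0.0231) in LKB1-deficient cells. RPL4 was called lower in LKB1-deficient cells with the length trend removed, at -0.25 (edgeR adjusted p = 1.52e-10), and higher in WT cells, at 0.29.

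In the small subunit the lowest differences were RPS14 at -0.52 (SE 0.0529, edgeR adjusted p = 6.56e-08) and RPS25 at -0.51 (SE 0.105, edgeR adjusted p = 0.000427). RPS14 had 301, 318 and 305 CPM in LKB1-deficient AA against 291, 265 and 280 CPM in LKB1-deficient PBS libraries, and 429, 421 and 454 CPM in WT AA against 283, 268 and 271 CPM in WT PBS libraries. RPS27 came next at -0.36 (SE 0.160) and was not called (edgeR adjusted p = 0.0727). RPL10A and RPL10, by contrast, rose more in LKB1-deficient cells, with differences of 0.37 (SE 0.0429) and 0.17 (SE 0.0459). RPL10A had 583, 564 and 602 CPM in WT AA against 347, 357 and 345 CPM in WT PBS libraries, so it rose in both genotypes.

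Genes picked for their known roles, after their values were seen, did not all follow one course. RPL5 and RPL11, which with 5S ribosomal RNA bind the p53 regulator MDM2, rose by 0.53 (SE 0.0244) and 0.48 (SE 0.0501) in LKB1-deficient cells and by 0.61 (SE 0.0244) and 0.68 (SE 0.0501) in WT cells. The difference was called for RPL11 (-0.19, SE 0.0707, edgeR adjusted p = 0.0301) and not for RPL5 (-0.08, SE 0.0344, edgeR adjusted p = 0.0603). The call for RPL11 was lost with DESeq2 (-0.19), with library size alone as the scale (-0.14), and without replicate 1 or 3 of either AA group or of the LKB1-deficient PBS group, or replicate 3 of the WT PBS group (-0.19 to -0.15). RPS6, the substrate of the S6 kinases, rose by 0.35 (SE 0.0298) in LKB1-deficient and 0.58 (SE 0.0298) in WT cells, a called difference of -0.23 (SE 0.0421). Of the genes that make a ribosomal protein fused to a ubiquitin-like protein, FAU differed by -0.30 (SE 0.0724) and RPS27A by -0.11 (SE 0.0628), the second not called. For the stalk proteins RPLP0 and RPLP1 the differences were 0.01 (SE 0.0312) and 0.05 (SE 0.106), neither called, and RPLP0 rose by 0.54 (SE 0.0221) in LKB1-deficient and 0.53 (SE 0.0221) in WT cells.

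Of the 6 tested paralogue pairs, RPL22 and RPL22L1 had called differences in opposite directions. In the next pair the difference was called for RPL26L1 and not for RPL26. RPL36A and RPL36AL were both called lower, by unlike amounts, and RPL7 and RPL7L1 both lower, by similar ones. Neither member was called for RPS27 with RPS27L or for RPL39 with RPL39L. The contrast within a pair was not itself tested. RPL22L1 had 30.2, 33.5 and 30.1 CPM in LKB1-deficient AA against 17.1, 13.2 and 14.9 CPM in LKB1-deficient PBS libraries. In WT cells it had 19.6, 15.9 and 18.8 CPM under AA against 17.5, 16.3 and 14.5 CPM under PBS, and these overlapped. The WT change of 0.17 (SE 0.0987) was not called, and was called at 0.25 without replicate 2 of the WT AA group. The difference of 0.88 (SE 0.137, edgeR adjusted p = 1.95e-05) runs opposite to that of RPL22, at -0.57. RPL22L1 was called lower in WT cells with the length trend removed, at -0.30 (edgeR adjusted p = 0.00246). In mouse, the RPL22 protein is known to hold down RPL22L1.

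RPL26 and RPL26L1 encode nearly identical proteins. RPL26 rose by 0.61 (SE 0.0355) in LKB1-deficient and 0.68 (SE 0.0355) in WT cells, with no called difference (-0.08, SE 0.0501). RPL26L1 rose by 0.63 (SE 0.0437) in LKB1-deficient and 0.24 (SE 0.0447) in WT cells, a called difference of 0.39 (SE 0.0626, edgeR adjusted p = 2.50e-05). With the length trend removed RPL26L1 was at 0.20 in LKB1-deficient cells and was called lower in WT cells, at -0.18 (edgeR adjusted p = 0.00553), and the difference was 0.38.

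RPL36A rose in both genotypes, by 0.49 (SE 0.0665) in LKB1-deficient and 0.76 (SE 0.0664) in WT cells, while RPL36AL fell in LKB1-deficient cells and rose in WT cells. In WT cells RPL36AL had 95.1, 85.4 and 102 CPM under AA against 76.6, 75.4 and 71.7 CPM under PBS, a change of 0.34 (SE 0.0722). Its difference of -0.91 (SE 0.105, edgeR adjusted p = 3.43e-07) was the lowest of the 84. With the length trend removed the WT change of RPL36AL became -0.09 and was not called, and the difference stayed at -0.92.

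RPS27 and RPS27L, a target of p53, rose in both genotypes with no called difference (-0.36, SE 0.160, and -0.14, SE 0.108). RPL39 rose by 0.40 (SE 0.104) in LKB1-deficient and 0.75 (SE 0.104) in WT cells. RPL39L, known mainly from testis, rose by 0.29 in LKB1-deficient cells (SE 0.124, edgeR adjusted p = 0.0375) with overlapping libraries, and was not called in WT cells (0.26, SE 0.127). The RPL39L call was lost without replicate 2 or 3 of the LKB1-deficient AA group (0.18 and 0.30) and without replicate 1 or 2 of the LKB1-deficient PBS group (0.30 and 0.15). RPL7 rose by 0.52 (SE 0.0352) in LKB1-deficient and 0.70 (SE 0.0352) in WT cells. RPL7L1 had 165, 163 and 166 CPM in LKB1-deficient AA against 188, 195 and 196 CPM in LKB1-deficient PBS libraries, and in WT cells its 188, 190 and 194 CPM under AA overlapped the 190, 206 and 201 CPM under PBS. RPL7L1 was not called in WT cells, at -0.06. Its WT change was 6.98e-05 with upper quartile scaling, and it was called, at -0.10, without replicate 1 of the WT PBS group.

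**Figure D5:**
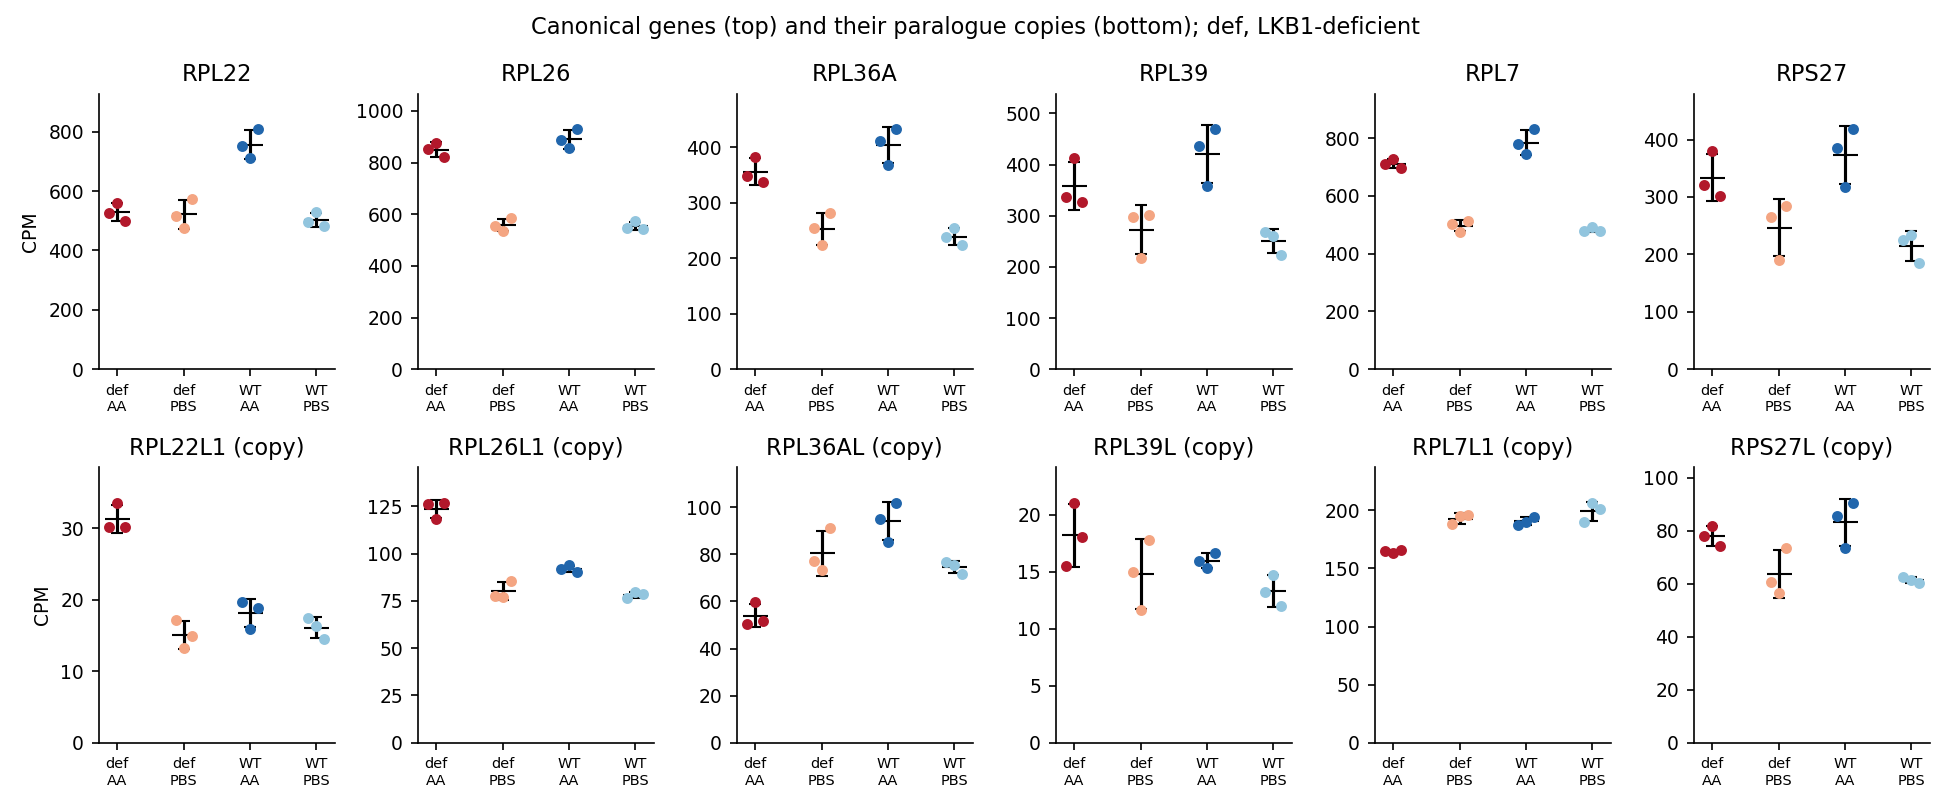
CPM of 6 standard genes (top) and their paralogue copies (bottom) in each library of the 4 groups (def, LKB1-deficient); points are libraries, horizontal marks the mean and bars the SD of 3, each panel with its own axis from 0. RPL22 stays low and RPL22L1 is high in LKB1-deficient AA libraries, and RPL36AL is lowest there.

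Under PBS the genotypes were close. Of the 84 genes 0 were higher and 0 lower in LKB1-deficient than in WT cells by edgeR, where 0.055% and 0.22% of all genes tested were (0.275% in all), and DESeq2 and limma on FPKM also called 0. At an unadjusted p under 0.05 there were 3, RPS12 (0.13), RPS24 (0.07) and RPS3A (0.07), with edgeR adjusted p-values of 0.527, 0.522 and 0.485. The log2 differences lay between -0.13 for RPL23A and 0.20 for RPS27, with a median of 0.03 in the large and 0.05 in the small subunit and a median standard error of 0.05. Libraries did not overlap for RPS3A, higher in LKB1-deficient cells, and RPL23A, lower, 1 gene each, against 6.35% and 7.1% of all genes tested. Differences of this size cannot be separated from 0 at this replicate spread.

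Under AA the genotypes differed, as they did for most genes tested. Compared with WT cells, 36 genes were lower and 5 higher in LKB1-deficient cells, where 30.3% and 28.7% of all genes tested were, 59% in all. The other 43 of the 84 were not called, so these genes were called less often than all genes tested, with more of the calls lower. Libraries did not overlap for 33 lower and 5 higher genes, against 32.4% and 30.9% of all genes tested. With the length trend removed 56 were lower and 8 higher, against 29.9% and 28.9% of all genes. The large subunit had 22 lower and 5 higher and the small subunit 14 lower and 0 higher, with medians of -0.07 and -0.09. Without replicate 3 of the WT AA group these medians were -0.037 and -0.031, without replicate 2 of that group -0.14 and -0.16, and without replicate 3 of the LKB1-deficient AA group the small subunit's was -0.059. With library size alone as the scale 33 were lower and 10 higher, and the split over all called genes moved to 57.5% higher, against 48.7% with the usual scale. Lowest were RPL36AL at -0.80 (SE 0.0739), RPL7A at -0.67 (SE 0.0221) and RPL22 at -0.52 (SE 0.0543) in the large subunit, and RPS14 at -0.49 (SE 0.0368) and RPS25 at -0.38 (SE 0.0732) in the small subunit. Highest were RPL22L1 at 0.79 (SE 0.0903), RPL26L1 at 0.43 (SE 0.0426) and RPL10A at 0.39 (SE 0.0297). These comparisons share their AA libraries with the ones above and are not a second line of evidence.

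Small nucleolar RNAs lie within 28 of the 84 tested genes, in GENCODE release 29. Their median change was 0.54 in LKB1-deficient and 0.68 in WT cells, against 0.53 and 0.66 for the other 56. RPL7A holds 4 of them and RPS12 holds 3, and these stood at opposite ends in LKB1-deficient cells.

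Outside the symbol rule, RACK1, a scaffold bound to the small subunit, rose by 0.57 in LKB1-deficient and 0.53 in WT cells with no called difference. Of 20 other genes with TOP messenger RNAs, 14 rose and 4 fell in LKB1-deficient cells, and 19 rose and 1 fell in WT cells, with medians of 0.25 and 0.45; of all genes tested 37% rose and 37.4% fell in LKB1-deficient cells, and 34.5% and 35.2% in WT cells. TPT1, EEF1G and EIF3E rose most in LKB1-deficient cells, at 0.64, 0.58 and 0.52, and EEF1G, TPT1 and PFDN5 in WT cells, at 0.68, 0.62 and 0.60. PABPC4, a poly(A)-binding protein, fell in both, at -0.38 and -0.24. HNRNPA1 fell by 0.26 in LKB1-deficient cells and rose by 0.23 in WT cells. PFDN5, a prefoldin subunit, was not called in LKB1-deficient cells at -0.10, and its difference was -0.70.

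Of 14 genes for proteins that bind TOP messenger RNAs or drive their translation, 4 rose and 7 fell in LKB1-deficient cells (37% and 37.4% of all genes), and 1 rose and 9 fell in WT cells (34.5% and 35.2% of all genes). LARP1 fell by 0.86 in LKB1-deficient and 0.94 in WT cells, and EIF4EBP2, a repressor of cap-dependent translation under mTOR, by 1.95 and 0.95. EIF4EBP1, its relative, rose by 1.19 in LKB1-deficient cells and was not called in WT cells at 0.09. CNBP, which binds pyrimidine-rich leaders, rose by 0.76 in LKB1-deficient cells and was not called in WT cells at 0.05. The interaction was called for EIF4EBP2 (-0.999), EIF4EBP1 (1.10) and CNBP (0.70) and not for LARP1 (0.08).

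Of 14 chaperones and importers of ribosomal proteins, 5 rose and 5 fell in LKB1-deficient cells (37% and 37.4% of all genes), and 5 rose and 4 fell in WT cells (34.5% and 35.2% of all genes). These shares are near those of all genes. GRWD1, the chaperone of RPL3, fell by 0.65 in LKB1-deficient and 0.61 in WT cells, while RPL3 rose by 0.60 and 0.77. PDCD2L rose by 0.75 in LKB1-deficient cells and was not called in WT cells at -0.08, a called difference of 0.82. NAP1L1, NACA and BTF3 belong to both this list and the TOP list.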

How the data were processed

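Libraries were grouped by the genotype and treatment labels. The authors deposited a table of estimated counts and a table of FPKM values for the same genes. Per the submitters' processing notes, RSEM, StringTie 1.3.1 and HISAT2 2.1.0 were used, along with Bowtie2 2.2.8 and the read trimmer fastp 0.18.0. The order of these steps, the build of the genome and the use of strand were not given in the sources used here. Estimated counts were rounded and tested with edgeR 4.0.16 (R 4.3.3): TMM scaling, a minimum count of 10 by its expression filter, 1 quasi-likelihood fit over all 12 libraries in 4 groups, Benjamini-Hochberg adjustment over 12718 genes (99.97% of counts) and a threshold of 0.05. CPM values use TMM. Implied length is count over FPKM, and its trend was fitted by lowess (span 0.3) in each library. Code was tested on simulated data. No library copied another. Alternatives were DESeq2 1.42.0, limma 3.58.1 on log2(FPKM + 1) and log2(FPKM + 0.1), other scalings and filters, a replicate block and leaving out each library.

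Named genes were the 3 highest and 3 lowest changes per subunit and comparison, the paralogue pairs, the FPKM extremes, the genes below the filter, and extremes of the other lists; further names are said to be picked later. The genes and lists were chosen with earlier results of these data known. Positions are from RefSeq on GRCh38.p14. Single values of 2 genes are not reported here.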

Additional observations from a re-analysis of the deposited data

Results flagged for a closer look

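For 33 of the 84 genes the log2 change under AA was lower in LKB1-deficient than in WT cells, and for 4 it was higher. Over all genes tested, 23% were lower and 21.6% higher, 44.6% in all. The calls are from the interaction test of the edgeR fit (LKB1-deficient minus WT, adjusted p under 0.05). Only 22 of the called genes are listed here. The change was higher in LKB1-deficient cells for RPL22L1 (0.88), RPL26L1 (0.39), RPL10A (0.37) and RPL10 (0.17). In the large subunit it was lower for RPL36AL (-0.91), RPL7A (-0.66), RPL22 (-0.57), RPL15 (-0.50), RPL24 (-0.46), RPL4 (-0.43), RPL38 (-0.35), RPL36A (-0.26), RPL11 (-0.19), RPL7 (-0.18), RPL7L1 (-0.17) and RPL3 (-0.16). In the small subunit it was lower for RPS14 (-0.52), RPS25 (-0.51), RPS10 (-0.32), FAU (-0.30), RPS24 (-0.27) and RPS6 (-0.23).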

How the results depend on the processing

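No shared effect of replicate number was seen: 18 correlations between same-numbered libraries lay between -0.094 and 0.054. With 3 libraries in a group, they cannot show whether libraries were handled in pairs or batches. A replicate block gave 32 genes lower for the difference and 35 lower and 4 higher for the genotypes under AA, and ended the call of the RPL38 difference. Of all genes tested, 43.7% were then called for the difference and 58.2% for the genotypes under AA.

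With the length trend removed (and to the same values with the replicate block, unless given), AA in LKB1-deficient cells gave 45 higher and 18 lower, with medians of 0.11 (large) and 0.10 (small). Of all genes tested, 35.7% were higher and 34.9% lower there without the block. AA in WT cells gave 2 lower (31.6% of all genes), with medians of 0.23 and 0.21. The genotypes under AA gave 8 higher and 56 lower (57 with the block), against 28.9% and 29.9% of all genes. Only named genes are listed next, and others also turned for AA in LKB1-deficient cells and were called lower, among them RPL21 (-0.27) and RPL17 (-0.26). Among the named genes, directions then turned for AA in LKB1-deficient cells in RPL24 (-0.35), RPL22 (-0.33), RPL15 (-0.32), RPS14 (-0.28), RPL38 (-0.27), RPL4 and RPS25 (-0.25), RPS26 (-0.19), RPL39L (-0.13), RPS27L and FAU (-0.12), RPS10 (-0.092), RPL23A (-0.065), RPL39 (-0.062, block -0.061), RPS24 (-0.056, block -0.055), RPS6 (-0.032) and RPS27 (-0.024). They turned for AA in WT cells in RPL22L1 (-0.30), RPL26L1 (-0.18), RPL39L (-0.14), RPL36AL (-0.090), RPL38 (-0.012, block -0.011) and RPL7L1 (0.041, block 0.042). The difference turned for RPLP0 (-0.089), RPLP1 (-0.049, block -0.042) and RPS2 (-0.017), and the genotypes under PBS for RPL26 (-0.041) and RPL10 (-0.015). The cause was not tested.

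With library size alone, the large subunit median was 0.59 for AA in LKB1-deficient cells, -0.088 for the difference and -0.017 for the genotypes under AA, with 10 higher (59.2% of all genes called, 57.5% of these higher). On FPKM with either pseudocount these medians were 0.59, -0.067 and -0.013, the small subunit's were -0.076 and -0.021 for the difference and the genotypes, 8 were higher, and the small subunit median for AA in LKB1-deficient cells was 0.60 with 0.1 added. On log2(FPKM + 1), 53.8% of all genes tested were called between the genotypes under AA, and 60.3% of these were higher, against 48.7% by edgeR. No filter gave 11 higher there, with 44.9% of all genes called and 49.6% of these higher. Upper quartile scaling gave 0.67 for the large subunit in WT cells, 6.98e-05 for RPL7L1 in WT cells and -0.013 for the RPLP0 difference. As shares of FPKM the large and small subunits held 8.63% and 5.91% in LKB1-deficient AA, 6.29% and 4.18% in LKB1-deficient PBS, 8.90% and 6.02% in WT AA, and 6.17% and 4.07% in WT PBS cells. Without mitochondrial genes the small subunit held 2.36% in LKB1-deficient AA and 1.59% in LKB1-deficient PBS cells and 1.55% in WT PBS cells, and the large subunit 2.61% in LKB1-deficient PBS and 2.56% in WT PBS cells.

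Leaving out 1 library at a time, the WT large subunit median ranged from 0.58 to 0.66 and the number lower in WT from 0 to 1. The difference's median ranged from -0.17 to -0.075 (large) and -0.19 to -0.086 (small), and the genotypes under AA from -0.14 to -0.037 (large) and -0.16 to -0.031 (small), with 32 to 49 lower and 4 to 7 higher. Of all genes tested, 53.5% to 58.8% were then called between the genotypes under AA. Values crossed 0 for RPL22 with AA in LKB1-deficient cells (-0.042 to 0.088). They did for the difference in RPS29 (-0.16 to 0.18), RPL39L (-0.11 to 0.18), RPLP0 (-0.011 to 0.028), RPLP1 (-0.046 to 0.13) and RPL37 (-0.20 to 0.037). They did for the genotypes under PBS in RPL22 (-0.015 to 0.12), RPL26L1 (-0.014 to 0.063), RPL10 (-0.0036 to 0.049), RPL26 (-0.024 to 0.038), RPL3 (-0.0014 to 0.022) and RPS27L (-0.068 to 0.13), and under AA in RPS29 (-0.066 to 0.22).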
